A study of Homo sapiens with 6 samples.

Results

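The 10 genes described here encode receptors and ligands at the head of Toll-like and interleukin-1 (IL-1) signalling, and they were chosen by name: TLR1, TLR2, TLR3, TLR4 and TLR6, the IL-1 receptor genes IL1R1, IL1RAP and SIGIRR, and the ligand genes IL1A and IL1B. All 10 were found among the 20683 genes listed, and 6 of them had enough counts for the test of the difference between groups. The libraries came from HT-1080, an established human fibrosarcoma line, sampled after 24 h with SLV-8472-01, an inhibitor of the kinase IRAK4 labelled as 5 mM (a concentration with no check in the files), or with 0.1% DMSO, the control. Each group had 3 libraries, called biological replicates in the series, made with a transcriptome-wide amplicon panel and read on an Ion Torrent Proton. No receptor agonist or cytokine is named in the labels, the cells grew in medium with serum, and the cells are 1 line.

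Toll-like receptors bind microbial products, and the IL-1 receptor binds IL-1 alpha and IL-1 beta; both carry a TIR domain inside the cell. Through that domain most of them recruit the adaptor MYD88, which brings in IRAK4 and IRAK1, and TRAF6 then activates NF-kB and MAP kinases. Fibroblasts are known to answer IL-1 strongly, and IL1A and IL1B are themselves among the genes that NF-kB and AP-1 induce, so ligand genes are both the input and an output of the pathway.

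After inhibitor treatment IL1A fell 2.24-fold, and it was the single gene of the 6 tested that passed. IL1B was 1.34-fold lower and TLR4 1.42-fold higher in the inhibitor libraries, with no overlap between groups, but neither passed the adjustment over all genes. Of all tested genes, 3.87% passed and 25.5% had groups that did not overlap. IL1RAP, SIGIRR and IL1R1 overlapped between groups. TLR1, TLR2, TLR3 and TLR6 were at 11 counts or fewer in every library.

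IL1A and IL1B lie next to each other on chromosome 2 in the RefSeq annotation, with no protein-coding gene between them. The 250 bases before the start of IL1A, IL1B and TLR4 are shown. These are the 3 genes of the 6 tested whose groups did not overlap, as was the case for 25.5% of all tested genes. The sequences are from RefSeq (GRCh38.p14) and run 5′ to 3′ on the strand of the gene, with the match to a searched motif in capitals. They lie at chr2:112784494-112784743 (minus strand, IL1A), chr2:112836780-112837029 (minus strand, IL1B) and chr9:117704153-117704402 (plus strand, TLR4). For IL1A the table holds 2 starts, and the first is shown.
IL1A: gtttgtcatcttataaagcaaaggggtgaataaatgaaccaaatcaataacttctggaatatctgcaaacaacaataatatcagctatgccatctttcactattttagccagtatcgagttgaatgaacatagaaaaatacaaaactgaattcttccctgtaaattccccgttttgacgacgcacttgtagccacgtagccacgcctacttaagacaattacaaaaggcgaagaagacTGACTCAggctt
IL1B: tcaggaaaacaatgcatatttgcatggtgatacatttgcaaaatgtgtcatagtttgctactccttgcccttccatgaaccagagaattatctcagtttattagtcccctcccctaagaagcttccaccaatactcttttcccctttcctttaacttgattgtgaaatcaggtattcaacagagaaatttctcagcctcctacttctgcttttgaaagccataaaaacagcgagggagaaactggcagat
TLR4: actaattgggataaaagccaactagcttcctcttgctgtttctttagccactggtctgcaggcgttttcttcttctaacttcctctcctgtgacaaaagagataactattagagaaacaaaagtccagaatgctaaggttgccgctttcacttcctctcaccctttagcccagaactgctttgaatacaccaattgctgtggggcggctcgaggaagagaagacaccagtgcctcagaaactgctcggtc
The IL1A window held an AP-1 motif, TGANTCA, at 12 to 6 bases before the start, and this was the single match of either motif in the 9 of 10 genes with a promoter in the table. The NF-kB motif was searched as well, each motif on both strands, and no match to it lay in these windows. Each gene was searched at its first start alone, and IL1R1 has 4 starts in the table. Among 27305 promoter windows of the same length, 6.6% held the AP-1 motif and 9.57% the NF-kB motif. A match describes letters in the window, and a missing match says only that those letters are not in it.

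The libraries held 9162281 to 13184553 counts. Replicates differed by more than counting noise in each pair (chi-square per degree of freedom 5.17 to 36.7), so each library counted as 1 replicate; nothing in the labels beyond the word biological says that they came from separate cultures, and p-values measure the spread between these libraries. DMSO 3 stood apart by this measure, at 36.7 with DMSO 1 and 24.6 with DMSO 2, against 9.88 between DMSO 1 and DMSO 2. GC trends were not confined to DMSO 3. Over 9005 genes, which are not replicates, transcript GC content was set against the deviation from the group mean. The Spearman rank correlation was -0.487 in DMSO 3, 0.531 in DMSO 1 and 0.13 in DMSO 2. The part of DMSO 3 in the results was not tested beyond the fit with GC trends removed. Values without it are given beside the 6 genes tested and those named pathway genes whose call or sign depends on it. Pathway genes that are not named can depend on it as well. The 6 fibroblast and fibrosarcoma markers summed to 8798 to 8976 CPM in the inhibitor libraries and 9113 to 9568 CPM in the DMSO libraries, led by VIM, the vimentin gene, at a log2 fold change of 0.09. The other 5 lay lower in every inhibitor library than in any DMSO library without passing edgeR's test, at log2 fold changes of -0.45 for MMP14 (adjusted p = 0.0749), -0.43 for PLAU (0.0736), -0.35 for FN1 (0.151), -0.35 for MMP2 (0.121) and -0.15 for CALD1 (0.539). Their part in the results was not tested. CPM are counts scaled to library size with TMM factors. Of 8 leukocyte markers, 5 never passed 3 counts in a library, and PTPRC and CD3E among them had 0 counts in every library. The list summed to 250.1 to 290.6 CPM in the inhibitor libraries and 321.1 to 370.8 CPM in the DMSO libraries, nearly all of it CD68, a lysosomal protein gene that other cells also express.

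The level of each gene under DMSO was described first, to show which receptors and ligands HT-1080 cells expressed. An amplicon panel samples each transcript at a short amplified stretch and not along its length, so levels of different genes compare as counts per product and not as molecules. IL1B stood highest at 142.6 ± 12.8 CPM (SD, n = 3), above 93.5% of the listed genes. TLR4 followed at 37.8 ± 6.61 CPM (n = 3), above 79.2% of listed genes. IL1RAP averaged 19.7 ± 6.49 CPM, SIGIRR 13.4 ± 1.46 CPM and IL1A 9.23 ± 2.04 CPM under DMSO (n = 3 each). Down to IL1A, the ranges of neighbours in this order did not overlap over the 3 DMSO libraries. IL1R1 at 1.2 ± 0.654 CPM, TLR3 at 0.66 ± 0.184 CPM and TLR1 at 0.405 ± 0.229 CPM overlapped as neighbours. TLR2 and TLR6 had 0 of 35526863 counts under DMSO, which allows up to 0.0861 CPM from 3 counts.

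**Figure D1:**
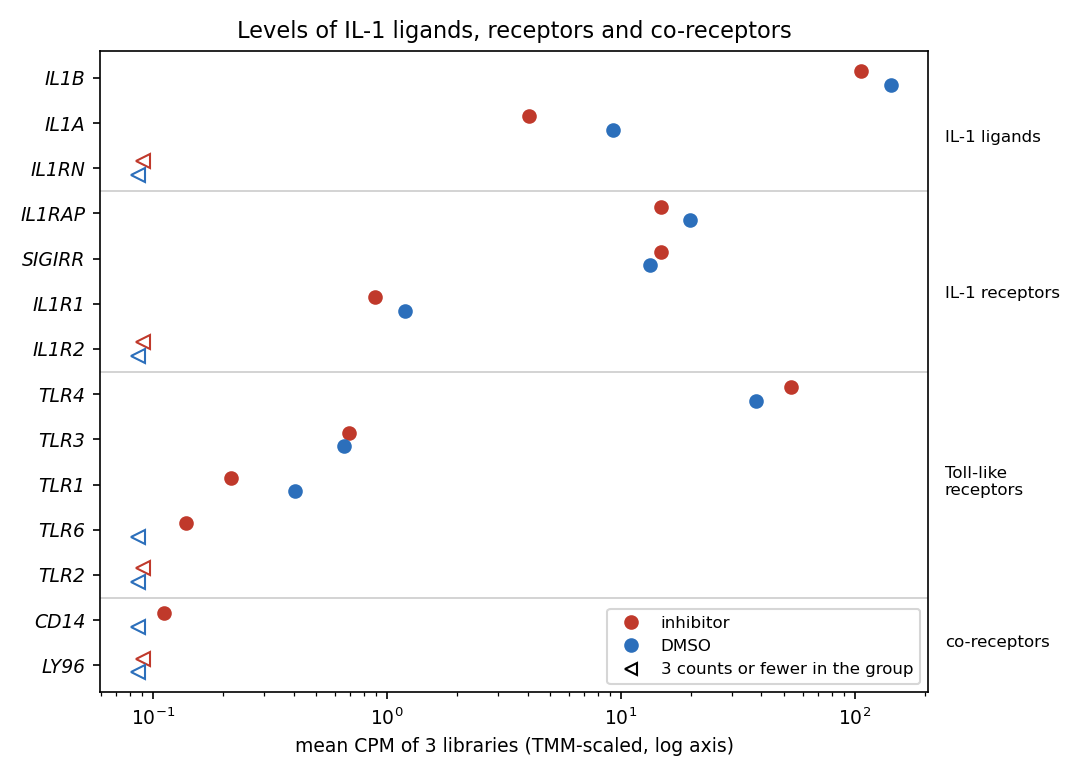
Mean level in the 3 inhibitor and the 3 DMSO libraries on a log axis (TMM-scaled CPM), by role; open triangles mark genes with 3 counts or fewer in the group, drawn at the level of 3 counts. IL1B and TLR4 lead the ligands and the Toll-like receptors, and IL1RN, IL1R2, TLR2 and LY96 sit at the limit in both groups.

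The ligands were compared first, since IL-1 alpha and IL-1 beta both act through IL1R1. IL1A encodes a form that is active without processing and can act as an alarmin when cells are damaged. IL1A had 3.84, 4.72 and 3.64 CPM in inhibitor 1, 2 and 3, against 8.13, 7.99 and 11.6 CPM in DMSO 1, 2 and 3. All 3 inhibitor libraries lay below all 3 DMSO libraries, with raw counts of 47, 53 and 35 in the inhibitor libraries against 104, 105 and 103 in the DMSO libraries. IL1A averaged 4.06 ± 0.577 CPM in the inhibitor libraries and 9.23 ± 2.04 CPM in the DMSO libraries (SD, n = 3 each). Its log2 fold change was -1.16 (SE 0.211, 95% interval -1.61 to -0.71, edgeR adjusted p = 0.00701). Of all 11216 genes tested, 3.87% were called by edgeR's quasi-likelihood test at an adjusted p under 0.05 and 1.92% were called lower, against 1 of the 6 tested here. Without DMSO 3 the log2 fold change of IL1A was -0.997 (adjusted p = 5.57e-04). The call was lost without inhibitor 1 (adjusted p = 0.0582) and without inhibitor 3 (adjusted p = 0.0540), at log2 fold changes of -1.12 and -1.10. The transcript GC content of IL1A is 39.1%, below the lower quartile of tested genes at 43.4%, and after removal of the GC trends the log2 fold change was -1.23 (adjusted p = 0.00126).

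IL1B encodes the secreted IL-1 beta, which inflammatory caspases cut to its active form. It had 113.8, 102.6 and 101.7 CPM in inhibitor 1, 2 and 3, against 127.8, 149.5 and 150.4 CPM in DMSO 1, 2 and 3. The inhibitor libraries again lay below the DMSO libraries, but the gap between the nearest libraries was small against the level. IL1B averaged 106 ± 6.71 CPM in the inhibitor libraries and 142.6 ± 12.8 CPM in the DMSO libraries (SD, n = 3 each). Its log2 fold change of -0.43 (SE 0.122, 95% interval -0.69 to -0.16) did not pass by edgeR (adjusted p = 0.0703, unadjusted p = 0.00369), a size close to that of the markers MMP14 and PLAU. DESeq2 called it (adjusted p = 0.0264), as did edgeR without DMSO 3, at a log2 fold change of -0.40 (adjusted p = 0.00545). It was also called by edgeR without DMSO 1 (adjusted p = 0.0319), without a filter on low counts (0.0387) and with the GC trends removed (0.0311).

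The ratio of the ligands within a library needs no scaling between libraries. IL1B had 29.7, 21.7 and 28 times the counts of IL1A in inhibitor 1, 2 and 3, against 15.7, 18.7 and 13 times in DMSO 1, 2 and 3. The ratios did not overlap, and averaged 26.5 ± 4.17 in the inhibitor libraries and 15.8 ± 2.87 in the DMSO libraries (SD, n = 3 each), so IL1A was lower relative to IL1B after treatment. The log2 difference was 0.75, or 0.61 without DMSO 3. An exact two-sided permutation test gave p = 0.1, the smallest that 3 against 3 libraries allow, and the same after adjustment over the 3 ratios computed. These 3 ratios were chosen with earlier results of these data known. The share of other gene pairs whose ratios do not overlap was not computed. Transcript GC content is 48.9% for IL1B and 39.1% for IL1A, and the part of the GC trends in their ratio was not tested.

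**Figure D2:**
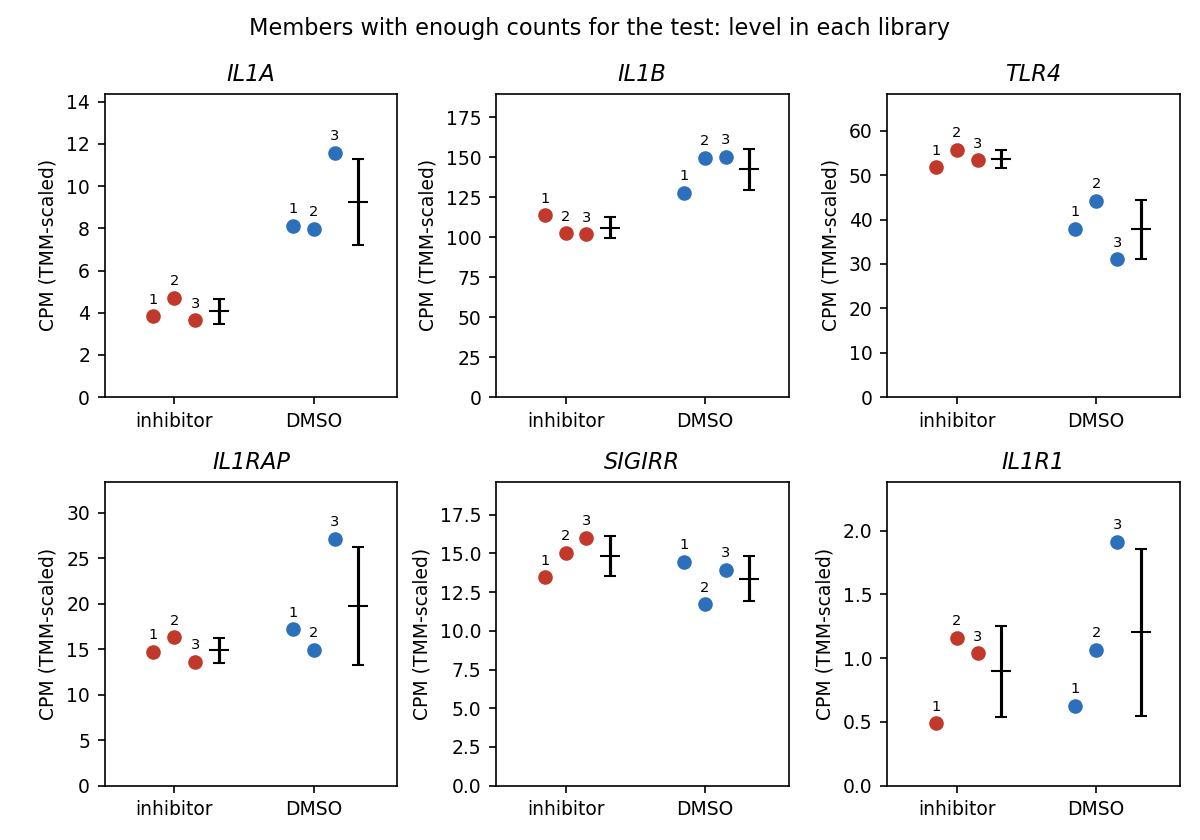
Level of each of the 6 tested genes in every library (TMM-scaled CPM, axes from 0), with the replicate number above each point and the mean ± SD of the group beside it. IL1A and IL1B lie lower and TLR4 higher in all 3 inhibitor libraries, and DMSO 3 holds the highest IL1A, IL1RAP and IL1R1 values and the lowest TLR4 value.

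The IL-1 receptor is formed by IL1R1, the chain that binds the ligand, and IL1RAP, the accessory chain that it shares with the receptors of IL-33 and IL-36. IL1R1 had 0.49, 1.16 and 1.04 CPM in inhibitor 1, 2 and 3, against 0.625, 1.06 and 1.91 CPM in DMSO 1, 2 and 3. In all, 29 counts fell in the inhibitor group and 39 in the DMSO group, and the groups overlapped. The log2 fold change of IL1R1 was -0.37 with a 95% interval of -1.36 to 0.63 (edgeR adjusted p = 0.722). Without DMSO 3 the sign turned, to 0.04 (adjusted p = 0.966).

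IL1RAP had 14.7, 16.3 and 13.6 CPM in inhibitor 1, 2 and 3, against 17.2, 14.9 and 27.1 CPM in DMSO 1, 2 and 3. The groups overlapped, and DMSO 3 lay far above the other libraries. The log2 fold change was -0.39 (SE 0.202, 95% interval -0.83 to 0.04, edgeR adjusted p = 0.303), and without DMSO 3 it was -0.12 (adjusted p = 0.596). SIGIRR encodes a receptor with a single immunoglobulin domain that dampens IL-1 and Toll-like receptor signalling. It had 13.5, 15.1 and 16 CPM in inhibitor 1, 2 and 3, against 14.5, 11.7 and 13.9 CPM in DMSO 1, 2 and 3, and the groups overlapped. Its log2 fold change was 0.15 with a 95% interval of -0.18 to 0.48 (edgeR adjusted p = 0.647), and without DMSO 3 it was 0.16 (adjusted p = 0.486). The accessory chain relative to the inhibitory receptor, taken as the ratio of IL1RAP to SIGIRR counts, was 1.09, 1.08 and 0.851 in inhibitor 1, 2 and 3, against 1.19, 1.27 and 1.94 in DMSO 1, 2 and 3. These ratios did not overlap (exact two-sided permutation p = 0.1, the smallest possible, and adjusted p = 0.1 over the 3 ratios). The log2 difference was -0.52, or -0.30 without DMSO 3. Transcript GC content differs widely between the genes, at 39.3% for IL1RAP and 64.4% for SIGIRR. The part of the GC trends of the libraries in this ratio was not tested.

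TLR4, the receptor of bacterial lipopolysaccharide, was the Toll-like receptor gene with the most counts in every library. It had 51.8, 55.8 and 53.3 CPM in inhibitor 1, 2 and 3, against 38, 44.3 and 31 CPM in DMSO 1, 2 and 3. The inhibitor libraries lay close together and above all DMSO libraries, and TLR4 averaged 53.6 ± 1.98 CPM in them and 37.8 ± 6.61 CPM in the DMSO libraries (SD, n = 3 each). Its log2 fold change of 0.50 (SE 0.142, 95% interval 0.20 to 0.81) did not pass by edgeR (adjusted p = 0.0674, unadjusted p = 0.00342). DESeq2 called it (adjusted p = 0.0421), as did edgeR without DMSO 3, at 0.37 (adjusted p = 0.0196), without a filter on low counts (adjusted p = 0.0262) and scaled by library totals alone (adjusted p = 0.0451). With the GC trends removed it did not pass, at 0.43 (adjusted p = 0.106). The TLR4 counts were 3.53, 3.42 and 3.92 times those of IL1RAP in inhibitor 1, 2 and 3, against 2.21, 2.97 and 1.15 times in DMSO 1, 2 and 3. Both genes have AT-rich transcripts, at 41.3% GC for TLR4 and 39.3% for IL1RAP, and this ratio did not overlap between groups (exact two-sided permutation p = 0.1, adjusted p = 0.1 over the 3 ratios; log2 difference 0.88, or 0.50 without DMSO 3).

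MD-2, which TLR4 needs to bind lipopolysaccharide, and CD14, which delivers it, are named after their values were seen. LY96, the gene of MD-2, summed to 1 count in the inhibitor group and 2 counts in the DMSO group. CD14 summed to 4 counts in the inhibitor group and 2 counts in the DMSO group. Whether the panel's products for these genes amplify well was not tested. Of 11 other Toll-like receptor and co-receptor genes, 6 had 0 counts in every library and 10 never passed 3 counts in a library. The highest of these by mean CPM were CD180, a TLR4-like surface receptor gene of B cells, at 9 counts in the inhibitor group and 4 counts in the DMSO group, and TLR9, a sensor of unmethylated DNA, at 3 counts in each group.

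TLR3, a sensor of double-stranded RNA in endosomes, had 11, 5 and 7 counts in inhibitor 1, 2 and 3, against 6, 11 and 6 in DMSO 1, 2 and 3. The ratio of its summed counts was 1.05, with an exact 95% interval of 0.564 to 1.96 that covers counting error only. TLR1 had 3, 1 and 3 counts in inhibitor 1, 2 and 3, against 2, 8 and 4 in DMSO 1, 2 and 3, a ratio of 0.526 (0.18 to 1.39). TLR6 had 4, 1 and 0 counts in inhibitor 1, 2 and 3, against 0 in each DMSO library. The groups overlapped at 0 counts in inhibitor 3, and the exact 95% interval of the ratio of its summed counts reached down to 0.964, which includes no difference. TLR2, which pairs with TLR1 or TLR6 to bind bacterial lipopeptides, had 1 count in inhibitor 1 and 0 in every other library, so no fold is given. TLR1 and TLR6 are close paralogs that neighbour each other on chromosome 4, and whether reads were split between them was not tested.

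Across the 6 genes tested, 3 had groups that did not overlap, against 25.5% of all tested genes, and 3 had an unadjusted p under 0.05, against 19.5%. Their median log2 fold change was -0.38, against -0.00438 over all tested genes. The number called depended on single libraries and on the tool. Without DMSO 3, IL1A and IL1B were called lower and TLR4 higher, but 21.9% of all tested genes were then called. The same 3 genes were called by DESeq2, against 5.3% of all genes, and by edgeR without a filter on low counts, against 5.32%. Fewer cells that express a gene and less RNA per cell cannot be told apart in these bulk libraries.

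**Figure D3:**
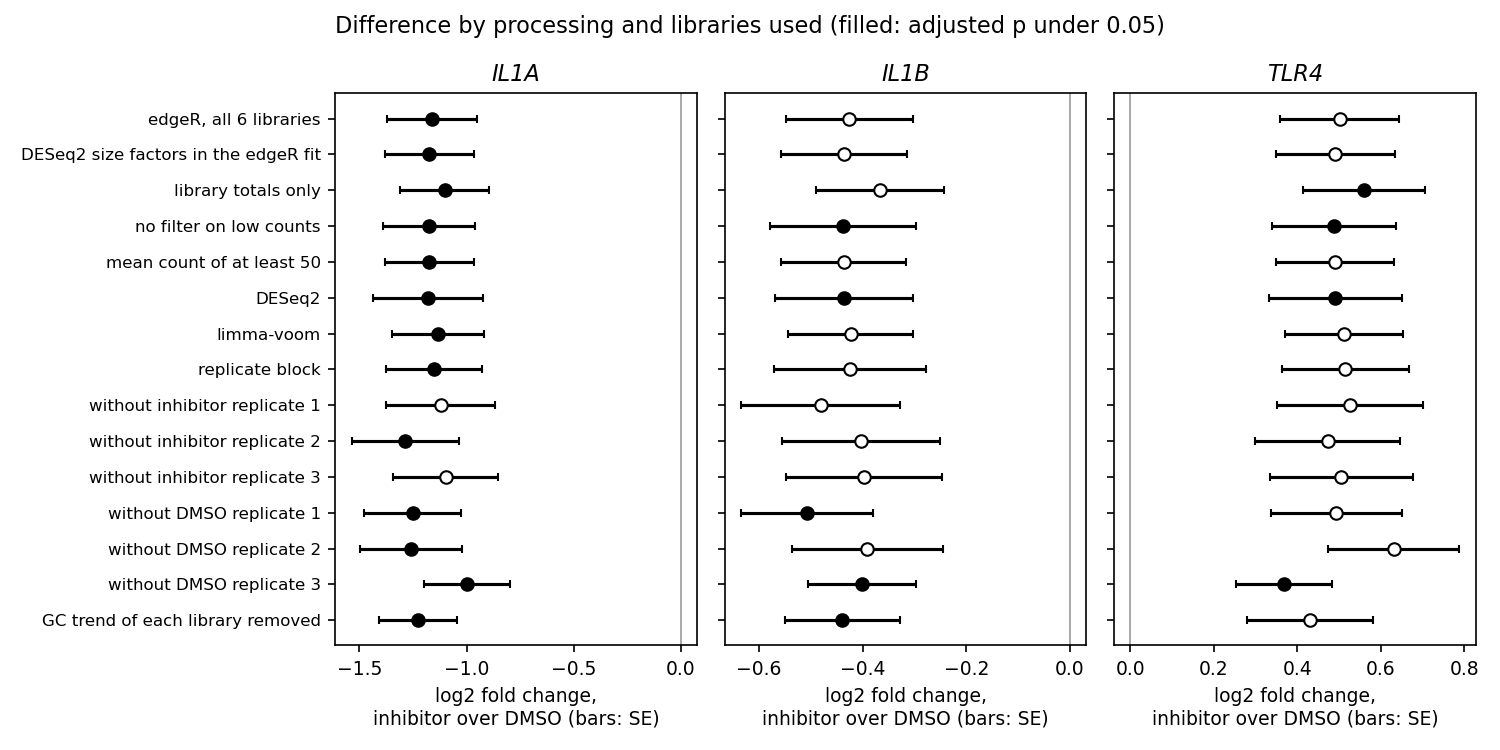
Log2 fold change of IL1A, IL1B and TLR4, inhibitor over DMSO, under each processing and with each library left out (bars are the SE, filled points have an adjusted p under 0.05). IL1A was called in 13 of the 15 fits shown, IL1B in 5 and TLR4 in 4. The sign of each gene was the same in all 15. The fits reuse the same 6 libraries and the groups of these genes do not overlap, so the kept sign adds no support.

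The other genes of the pathway were taken from lists by role, and none of the 37 tested passed by edgeR (3.87% of all tested genes did). At an unadjusted p under 0.05 there were 6 of the 37, against 19.5% of all tested genes. DESeq2 called 1 of the 37, RIPK1, against 5.3% of all genes, and limma-voom called 0. Their median log2 fold change was -0.0872. Without DMSO 3, 8 of the 38 pathway genes then tested were called, against 21.9% of all tested genes. Among the 8 were IRAK1 (log2 fold change -0.36, edgeR adjusted p = 0.0296), TRAF3 (-0.33, 0.0339) and UBE2V1 (0.52, 0.0112), named after their values were seen. With all 6 libraries the values were -0.30 for IRAK1 (edgeR adjusted p = 0.218), -0.15 for TRAF3 (0.649) and 0.40 for UBE2V1 (0.175). The groups of TRAF3 overlapped. Of 7 further IL-1 family receptor genes, 5 had 0 counts in every library, among them IL1R2, the decoy receptor gene. IL1RAPL1, which is known from synapse formation in neurons, summed to 53 counts in the inhibitor group and 90 counts in the DMSO group (log2 fold change -0.70, SE 0.327, edgeR adjusted p = 0.257; -0.46 without DMSO 3, adjusted p = 0.352). IL18R1, a chain of the IL-18 receptor, summed to 23 counts in the inhibitor group and 27 counts in the DMSO group. Of 9 further ligand genes none was tested. IL1RN, the gene of the natural IL-1 receptor antagonist, had 1 count in each group and is named after its value was seen. IL18 summed to 5 counts in the inhibitor group and 13 counts in the DMSO group, with a ratio of 0.405 (0.113 to 1.21). IL36B summed to 10 counts in the inhibitor group and 7 counts in the DMSO group.

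Of 12 genes that mature and release IL-1, 8 were tested. CAPN2, the large subunit of a calpain, a protease family that cuts pro-IL-1 alpha, averaged 168 ± 3.06 CPM in the inhibitor libraries and 195 ± 30 CPM in the DMSO libraries (n = 3 each), and did not pass (log2 fold change -0.22, edgeR adjusted p = 0.378) except without DMSO 3 (-0.29, adjusted p = 0.0426). CASP4, an inflammatory caspase gene, averaged 103.4 ± 3 CPM in the inhibitor libraries and 117.3 ± 31.3 CPM in the DMSO libraries, and its log2 fold change of -0.18 turned to 0.04 without DMSO 3 (adjusted p = 0.797). CASP1, the caspase that cuts pro-IL-1 beta, and GSDMD, the gene of the pore-forming gasdermin D through which IL-1 beta leaves cells, are named after their values were seen. CASP1 averaged 2.53 ± 0.638 CPM in the inhibitor libraries and 2.71 ± 0.381 CPM in the DMSO libraries. GSDMD averaged 53.4 ± 2.47 CPM in the inhibitor libraries and 51.2 ± 5.5 CPM in the DMSO libraries. The 8 tested genes of this list had log2 fold changes from -0.22 to 0.06, with a median of -0.0943.

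The 8 tested genes of receptor trafficking had a median log2 fold change of -0.155. HSP90B1 encodes the chaperone of the endoplasmic reticulum that folds Toll-like receptors. It averaged 2131 ± 132 CPM in the inhibitor libraries and 2668 ± 128 CPM in the DMSO libraries, with no overlap. Its log2 fold change of -0.32 (SE 0.104) did not pass (edgeR adjusted p = 0.101), except without DMSO 3 (-0.30, adjusted p = 0.0159) and with GC trends removed. CTSB, a lysosomal protease gene, was at 414.3 ± 46.6 CPM in the inhibitor libraries and 456.4 ± 21.3 CPM in the DMSO libraries. Of the 20 tested genes of the relay inside the cell, 5 had an unadjusted p under 0.05, against 19.5% of all tested genes, and the median log2 fold change was -0.0558. UBE2N, the ubiquitin-conjugating enzyme that works with TRAF6, averaged 138 ± 6.24 CPM in the inhibitor libraries and 118.2 ± 17 CPM in the DMSO libraries (adjusted p = 0.36; without DMSO 3 a log2 fold change of 0.33, adjusted p = 0.0179). TAB2, an adaptor of the kinase TAK1, averaged 108.2 ± 0.384 CPM in the inhibitor libraries and 110.3 ± 21.5 CPM in the DMSO libraries, and its log2 fold change of -0.03 turned to 0.12 without DMSO 3 (adjusted p = 0.451). TRAF6, the ubiquitin ligase downstream of the IRAK kinases, averaged 6.08 ± 1 CPM in the inhibitor libraries and 3.54 ± 1.06 CPM in the DMSO libraries, with no overlap. Its log2 fold change of 0.82 (SE 0.24) was the farthest from 0 in this list and did not pass (edgeR adjusted p = 0.0749), except without DMSO 3 (1.01, adjusted p = 0.00245), without a filter on low counts and with GC trends removed. RIPK1, a kinase of NF-kB and cell death signalling, came closest to the threshold, with no overlap (log2 fold change 0.48, SE 0.128, edgeR adjusted p = 0.0509). RIPK1 was called by edgeR without DMSO 3 (0.45, adjusted p = 0.00829), with library totals only, without a filter on low counts and with GC trends removed. DESeq2 called it as well. TRAF6, RIPK1, IRAK4 and MYD88 are named after their values were seen. IRAK4, the gene of the kinase that the compound is labelled to inhibit, averaged 1.17 ± 0.374 CPM in the inhibitor libraries and 1.39 ± 0.788 CPM in the DMSO libraries (log2 fold change -0.16, adjusted p = 0.88; without DMSO 3 0.27, adjusted p = 0.701). MYD88, the shared adaptor, summed to 1 count in the inhibitor group and 3 counts in the DMSO group, and how well its product amplifies was not tested.

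**Figure D4:**
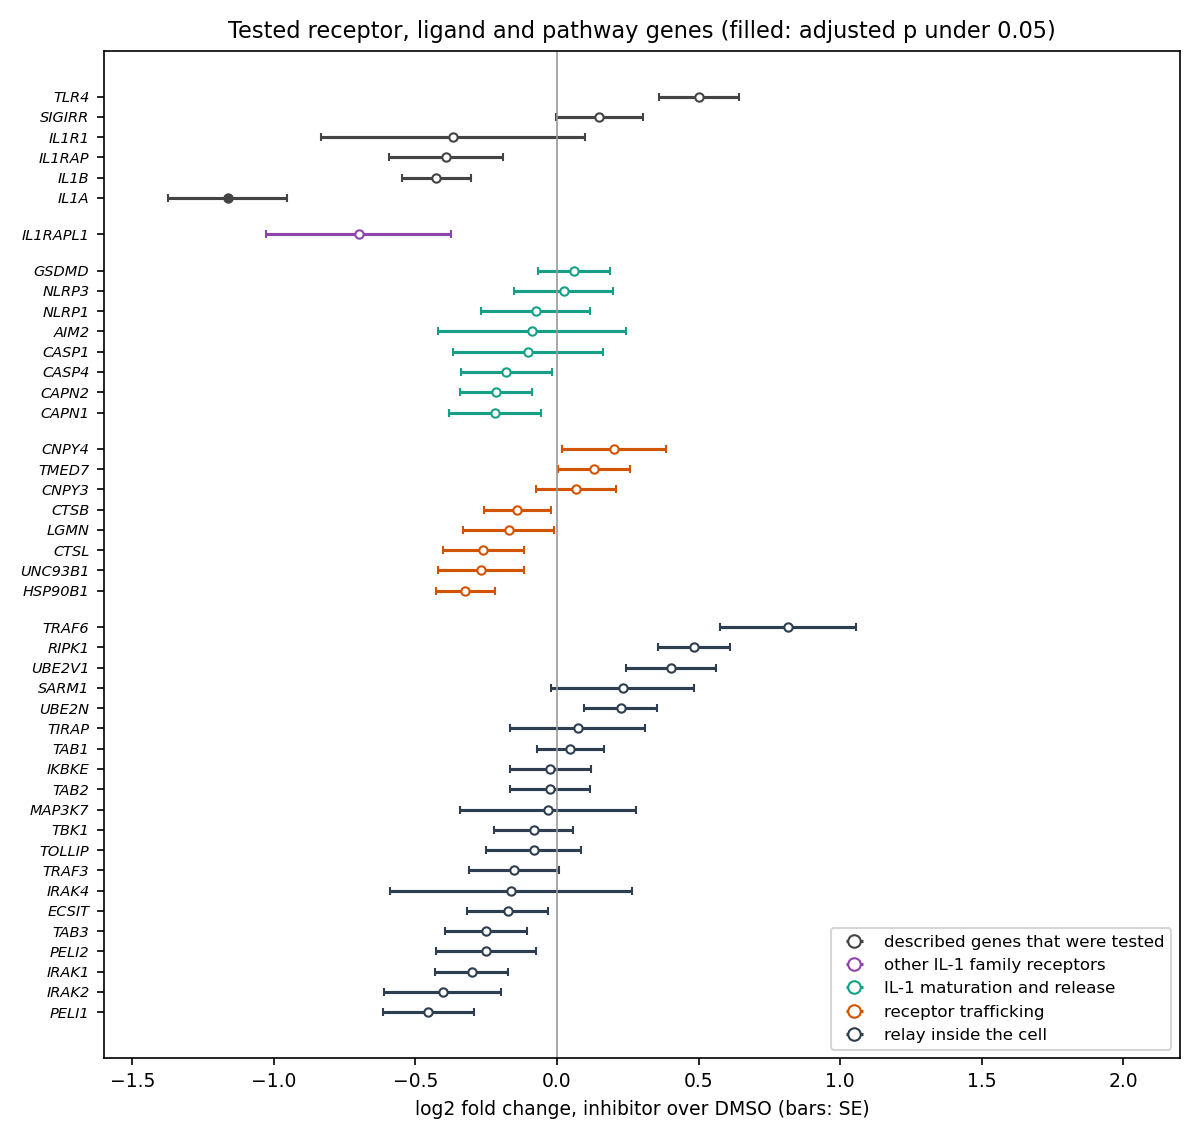
Log2 fold change, inhibitor over DMSO, of the 6 tested receptor and ligand genes and the 37 tested pathway genes, by role (bars are the SE). IL1A at -1.16 is the single filled point, with an adjusted p under 0.05.

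The genes most like each member over the 6 libraries were found by the distance between centred log2 CPM profiles, for members with a mean count of at least 50. Nearest to IL1A were TSC22D3 (distance 0.178), the gene of the glucocorticoid-induced leucine zipper protein, and MXD1 (0.427), a partner of MAX, against a median distance of 1.54 over all genes compared. TSC22D3 averaged 10 CPM in the inhibitor libraries and 23.9 CPM in the DMSO libraries, and MXD1 averaged 19.7 CPM in the inhibitor libraries and 39.3 CPM in the DMSO libraries. Nearest to IL1B were PELI1 (0.0716), a ubiquitin ligase gene, and TMED10 (0.08), a cargo receptor gene of the secretory pathway, against a median of 0.718. PELI1 is also on the list of the relay inside the cell. Its groups did not overlap, and it did not pass (log2 fold change -0.45, edgeR adjusted p = 0.133), but was called with GC trends removed. Nearest to TLR4 were YTHDF1 (0.115), a reader of methylated RNA, and CSTF2T (0.148), an RNA-processing factor gene, against a median of 0.845. IL1RAP lay nearest to PSAT1 (0.216), an enzyme of serine synthesis, and HSPA13 (0.235), an HSP70 family gene, and SIGIRR to MED19 (0.0875), a Mediator subunit, and ARHGDIB (0.0937). The median distance was 0.904 for IL1RAP and 0.57 for SIGIRR. These distances describe 6 libraries in 2 groups and carry no test.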

How the data were processed

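RNA of HT-1080 cells was made into amplicon libraries (Ion AmpliSeq Transcriptome Human Gene Expression Panel), per the labels' protocols. The authors deposited unnormalized read counts, 1 value a gene symbol and library. HTSeq, the build hg19 and DESeq2 1.20.0 are named, without roles, in the submitters' processing notes. For the aligner, the sources used here give no name. No molecular identifiers are named, so intervals cover counting error only, and amplification enters the counts.

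The main test was edgeR 4.0.16 in R 4.3.3: filterByExpr (minimum count 10, minimum total 15), TMM scaling, and the quasi-likelihood test of group over all 11216 genes kept, with p-values adjusted by Benjamini-Hochberg and called under 0.05. The SE is the absolute log2 fold change divided by the square root of F, and 95% intervals use it. Log2 CPM used a prior count of 2. Genes that failed the filter were given by counts, with the exact interval of the ratio. The fits were tested on simulated counts of 11131 genes. Of 1.5-fold changes edgeR found 35.8%, of 2-fold 82.1% and of 4-fold 100%, with 5.23% false calls. DESeq2 gave 9.38%, limma-voom 3.33% and the replicate block 3.42% false calls. Other fits were not simulated. The simulated libraries had no GC trend and none stood apart as DMSO 3 did, so these rates need not hold for the real libraries.

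Alternatives were DESeq2 size factors, library totals, other filters, DESeq2 1.42.0, limma-voom 3.58.1, a replicate block and each library left out. Removal of GC trends (local regression, span 0.5; GENCODE 29 transcripts by symbol, 95.7% of tested genes) was added after seeing the data. The genes, lists and ratios were chosen with earlier results of these data known. All 10 genes are named, with the 2 highest genes of each other list, any called gene and the 2 most alike genes; others are marked. TICAM1, TICAM2 and RAB7B were on the lists and are not analysed here. Promoters came from RefSeq GRCh38.p14, another build than the counts, by symbol.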

Additional observations from a re-analysis of the deposited data

How the results depend on the processing

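The number of the 6 tested receptor and ligand genes called was 1 with DESeq2 size factors, with a mean count of at least 50, with limma-voom and with the replicate block. It was 2 with library totals only and with GC trends removed, and 3 with DESeq2 and without a filter on low counts (then 10 tested). It ranged from 0 to 3 with each library left out. Of the other pathway genes, 0 were called by edgeR as used in the report, 1 with library totals only, 1 with DESeq2, 2 without a filter on low counts, 4 with GC trends removed and 0 to 8 with each library left out, the 8 without DMSO 3. The log2 fold change of IL1R1 ranged from -0.70 to 0.0381 with each library left out, and turned positive without DMSO 3. IL1R1 has no value with a mean count of at least 50, which it misses. The causes were not tested. Over all genes, 434 were called by edgeR as used in the report, 831 without a filter on low counts, 682 with GC trends removed (chosen after seeing the data), and 99 to 150 when an inhibitor library was left out. Leaving out DMSO 2 gave 185 and leaving out DMSO 3 gave 2496 calls. With library totals 335 of 498 calls were higher, against 219 of 434. The level under DMSO of each gene moved by less than 1 SD under the other scalings and with each DMSO library left out.

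The correlations of deviations between inhibitor and DMSO libraries of the same number were -0.0414, -0.0379 and -0.0883. Those of unlike numbers ran from -0.0842 to 0.115. Because GC trends also enter the deviations, these values cannot decide whether libraries of the same number were handled together. The replicate block gave 328 called genes in place of 434, with IL1A still called at a log2 fold change of -1.15 (adjusted p = 0.007).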
